A study of Mus musculus with 40 samples.

Results

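The aC3 cells are a single Bmal1-null clone, made by CRISPR, of YUMM2.1, a mouse melanoma cell line that carries an activating Braf mutation, Cdkn2a+/- and a stabilized β-catenin allele (Bcat STA/+). Wild-type Bmal1 was put back into these cells, and the comparison described here is of 2 aC3 libraries with WT-Bmal1 against 2 aC3 libraries with an empty vector (EV), 4 of the 40 samples in the series, chosen by the genotype and construct that their labels give. All 4 lack the cell's own Bmal1 by label (arntl KO), and the constructs came in a lentivirus that drives them without interruption in GFP-sorted cells. A second control, 2 aC3 libraries with dHLH-Bmal1, which lacks the domain that binds DNA, entered the same model. As a second background, 4 libraries of YUMM2.1 cells that keep their own Bmal1 and carry a control hairpin (shNC) were used, 2 with EV and 2 with WT-Bmal1. All cells were grown in medium with 25 mM glucose and 10% serum. The hour of harvest and any synchronization were not given in the sources used here. The study made its aC3 lines with these constructs from aC3 cells that already held a luciferase reporter under the Bmal1 promoter.

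Polyadenylated RNA was read from the 3′ end (QuantSeq), so that a transcript gives about 1 read whatever its length. The 6 aC3 libraries held 9347467 to 11006516 counts, and 1 CPM (a count scaled to library size) stood for 9.46 to 11 counts in the EV and WT-Bmal1 libraries. CPM were also scaled by TMM, a normalization that sets the bulk of genes to a common level. Genes were compared by the quasi-likelihood test of edgeR, adjusted after Benjamini and Hochberg over the 13790 genes tested in the 6 aC3 libraries, a gene being called at an edgeR adjusted p under 0.05. Tyrp1, Dct and Mlana, which define pigmented melanocytes, were at 0 in all 6 libraries and Tyr and Pmel were at no more than 0.399 CPM, whereas Sox10, the lineage factor, was at 454 to 620 CPM. The summed level of the 20 melanocyte genes was 757 to 758 CPM with EV and 1010 to 1040 CPM with WT-Bmal1, and most of that sum was Sox10 and S100b. Of markers of other cells, 6 endothelial genes summed to 6.90 to 7.83 CPM with EV and 12.4 to 12.9 CPM with WT-Bmal1, nearly all of it Pecam1 (edgeR adjusted p = 0.0568), while Tek and Cldn5 were at 0 throughout, and the part of such cells in the results was not tested. The summed ranges of fibroblast, leukocyte and keratinocyte markers overlapped between EV and WT-Bmal1, and no gene of these 4 lists was called.

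Bmal1, listed as Arntl, pairs with Clock and binds E-boxes in DNA to switch on the genes of its own repressors, the period and cryptochrome proteins, and so closes the main loop of the circadian clock. A second loop runs through the nuclear receptors Nr1d1 and Nr1d2 (REV-ERBα and REV-ERBβ), which are switched on by the same pair and repress Arntl, Cry1, Nfil3 and other genes that RORs activate. Further outputs, the PAR bZIP factors Dbp, Tef and Hlf, bind D-boxes, where Nfil3 opposes them.

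To show the elements through which these loops run, short stretches of RefSeq promoters (build GRCm38.p6, the assembly also called mm10) are printed with motif letters in capitals. Promoter windows ran from 250 bases before to 50 bases after an annotated start, and 37 of 49 clock symbols had an entry. Per2, Bhlhe40 and Mtss1 were among those without one. The canonical E-box, CACGTG, which reads the same on both strands, was in 2349 of 32851 promoters (7.15%) and in 10 of 54 promoters of the clock lists (18.5%). The D-box was searched as TTATGTAA or TTACGTAA and the ROR element, which REV-ERB also binds, by its consensus of a lead rich in A and T before GGTCA, on either strand, and both searches were chosen after the expression values were seen. None of these motifs contains another. The D-box was in 1.06% of all promoters and 5.56% of the clock ones, and the ROR element in 0.384% and in 1 of 54. Of the 9 clock-list genes with an E-box, Tef was called higher against EV, Cry1 lower and no other was called. Of the 3 with a D-box, only Per3 was called. Only some of the clock promoters with a motif are printed. All lines below read 5′ to 3′ along the gene's strand.
Tef, first start, chr15:81802519-81802578, plus strand, E-box: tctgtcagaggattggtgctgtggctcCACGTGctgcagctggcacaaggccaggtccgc
Tef, second start, chr15:81811249-81811308, plus strand, E-box: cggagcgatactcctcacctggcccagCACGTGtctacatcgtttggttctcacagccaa
Cry1, chr10:85185082-85185141, minus strand, E-box: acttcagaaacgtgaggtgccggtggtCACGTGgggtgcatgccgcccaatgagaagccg
Per1, chr11:69098756-69098815, plus strand, E-box: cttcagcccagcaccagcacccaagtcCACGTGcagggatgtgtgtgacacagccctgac
Ciart, chr3:95882256-95882355, minus strand, 3 E-boxes: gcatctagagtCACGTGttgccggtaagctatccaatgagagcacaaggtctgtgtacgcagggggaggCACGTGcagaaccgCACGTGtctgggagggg
Per3, chr4:151044809-151044878, minus strand, 2 D-boxes: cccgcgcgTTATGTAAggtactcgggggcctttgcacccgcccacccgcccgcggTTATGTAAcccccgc
Arntl, chr7:113207527-113207556, plus strand, ROR element: gggaaggcagAAAGTAGGTCAgggacggag

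Across all genes, 1544 of 13790 (11.2%) differed between WT-Bmal1 and EV, 678 of them higher (4.92%) and 866 lower (6.28%) with WT-Bmal1, and 3491 genes had an unadjusted p under 0.05. The median log2 fold change over all genes tested was 0.00727. Differences of at least 1 on the log2 scale were fewer, 155 higher and 40 lower. With 2 libraries a group, an exact two-sided permutation test of 1 gene cannot give a p below 0.333, so the calls rest on the spread shared across genes, and with any 1 of the 4 libraries left out the number of called genes was 510 to 547 (510 without the second EV library, 530 without the second WT-Bmal1 library, 539 without the first EV library and 547 without the first WT-Bmal1 library). In every one of those fits, 310 of the 1544 genes were called. The study gives the aC3 libraries as duplicates without saying whether they came from separate cultures, so the p-values measure no more than the spread between these libraries, which may be technical. Duplicates differed by more than counting noise, with a chi-square per degree of freedom of 4.16 for EV, 3.96 for WT-Bmal1 and 11.9 for dHLH-Bmal1. The spread of the dHLH-Bmal1 libraries enters the same fit, and 2303 genes were called when only the EV and WT-Bmal1 libraries were fitted. These are bulk cultures, so a change in all cells and a change in the share of cells that express a gene cannot be told apart.

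**Figure D1:**
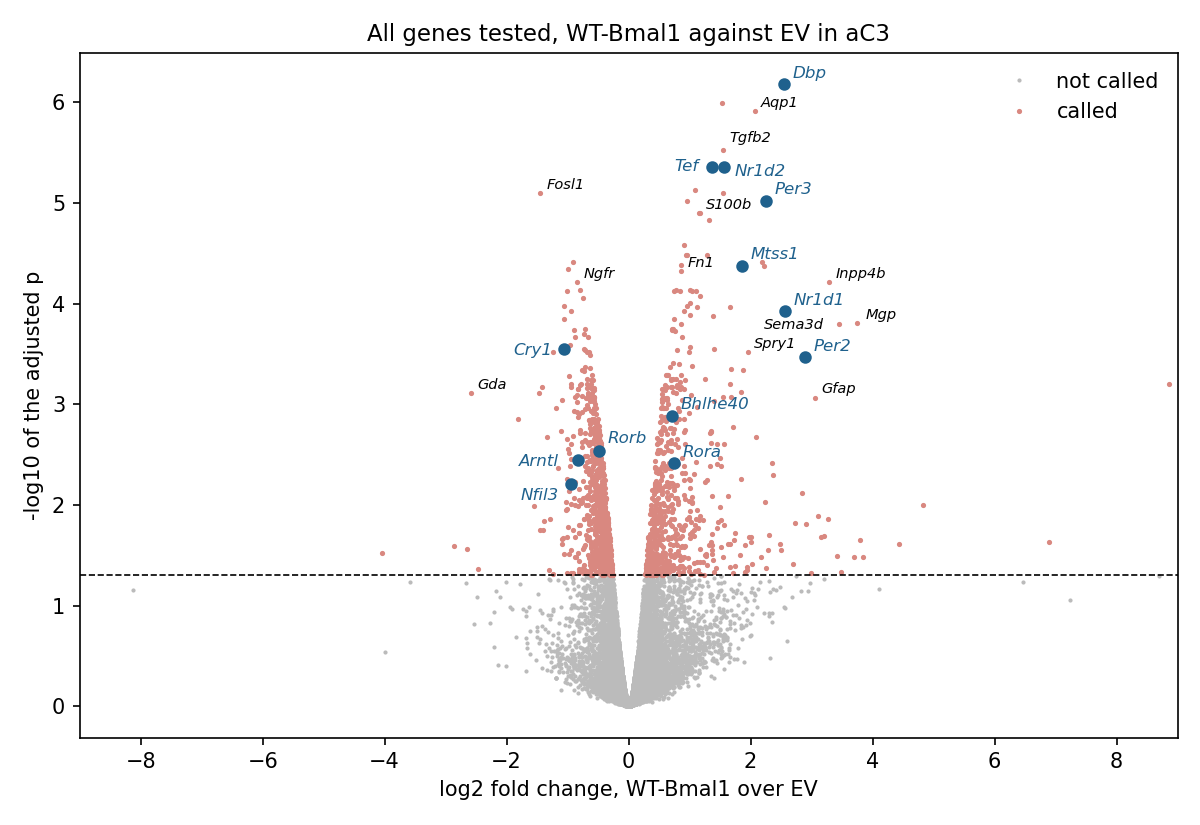
Each point is 1 of the 13790 genes tested, with the log2 fold change of WT-Bmal1 over EV on the x axis and -log10 of the edgeR adjusted p on the y axis, and the dashed line marks 0.05. Clock genes are in blue, with Dbp (2.54 on the log2 scale) at the top, and 678 genes to the right and 866 to the left lie above the line.

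The gene that was knocked out and put back gives the first values. Arntl (chr7:113207465-113314126, plus strand) was at 34.0 and 31.4 CPM with EV, 18.7 and 18.0 CPM with WT-Bmal1 and 46.1 and 32.5 CPM with dHLH-Bmal1. Both WT-Bmal1 libraries lay under all 4 others, and the level was 1.78-fold lower than with EV (log2 fold change -0.83, SE 0.156, edgeR adjusted p = 0.00356) and lower than with dHLH-Bmal1 (-1.10, edgeR adjusted p = 0.00287). Where the tags lie relative to the edited site and to the end of the construct was not determined here, so these counts are taken as a check of neither the knockout nor the restoration. The ROR element printed above starts 26 bases after an annotated Arntl start.

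Of 49 genes in 5 clock lists, 46 were in the table and 39 were tested, and 9 rose and 5 fell with WT-Bmal1 (23.1% and 12.8%, against 4.92% and 6.28% of all genes). Beside Arntl, no activator was called. Clock, the DNA-binding partner of Bmal1, was at 54.9 and 51.0 CPM with EV and 55.3 and 46.6 CPM with WT-Bmal1 (log2 fold change -0.05, edgeR adjusted p = 0.82). Arntl2, a paralogue of Bmal1, had a log2 fold change of -0.34 (edgeR adjusted p = 0.611). Npas2, which can stand in for Clock, was at 0.368 and 0 CPM with EV and at 0 in both WT-Bmal1 libraries, and at 1.79 and 1.43 CPM with dHLH-Bmal1 (edgeR adjusted p = 0.0612 for WT-Bmal1 against dHLH-Bmal1).

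Among the repressors, 2 of 10 rose and 1 fell (20% and 10%, against 4.92% and 6.28% of all genes, median log2 fold change 0.282). Per2, a core repressor (chr1:91415982-91459324, minus strand), was at 1.10 and 1.24 CPM with EV and 9.38 and 8.26 CPM with WT-Bmal1, a 7.46-fold rise (2.90 on the log2 scale, SE 0.378, edgeR adjusted p = 0.000336). Per3, a further period gene (chr4:151003652-151044665, minus strand), was at 8.83 and 7.16 CPM with EV and 38.1 and 38.2 CPM with WT-Bmal1, a 4.76-fold rise (2.25, SE 0.191, edgeR adjusted p = 9.46e-06). For both genes the EV and WT-Bmal1 libraries stood well apart. Cry1, a core repressor that pairs with period proteins (chr10:85131700-85185064, minus strand), moved the other way, from 28.3 and 24.8 CPM to 12.2 and 13.2 CPM (-1.07, SE 0.135, edgeR adjusted p = 0.000279). The promoter of Cry1 holds the E-box shown above. Per1 was at 3.77 and 3.34 CPM with EV and 5.03 and 8.15 CPM with WT-Bmal1, libraries that did not overlap but did not pass the test (0.88, edgeR adjusted p = 0.0819). Cry2 (0.51, edgeR adjusted p = 0.0989) and Ciart (0.80, edgeR adjusted p = 0.128), a further repressor of the Bmal1-Clock pair with 3 E-boxes in its promoter, did not pass either. Timeless and the casein kinases Csnk1d and Csnk1e, which phosphorylate period proteins, had log2 fold changes between -0.15 and -0.07 and did not pass.

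The REV-ERB, ROR and Nfil3 loop was the list in which all tested members were called, 3 higher and 2 lower of 5 (60% and 40%, against 4.92% and 6.28% of all genes). Nr1d1 (chr11:98767932-98775333, minus strand) was at 1.93 and 2.2 CPM with EV and 11.2 and 13.4 CPM with WT-Bmal1, a 5.95-fold rise (2.57 on the log2 scale, SE 0.294, edgeR adjusted p = 0.000118). Nr1d2 (chr14:18204054-18239127, minus strand) went from 19.9 and 23.1 CPM to 63.2 and 64.5 CPM, a 2.97-fold rise (1.57, SE 0.118, edgeR adjusted p = 4.40e-06). Neither repressor's promoter window held CACGTG. On the side of the targets, Nfil3, the D-box repressor, fell from 16.6 and 14.0 CPM to 9.09 and 6.78 CPM (-0.95, SE 0.192, edgeR adjusted p = 0.00613). Rora, an activator at ROR elements, rose from 14.5 and 14.1 CPM to 25.3 and 22.8 CPM (0.75, edgeR adjusted p = 0.00384). Rorb, its relative, fell from 198 and 176 CPM to 138 and 130 CPM (-0.48, edgeR adjusted p = 0.0029). The calls of the last 3 genes each rest on single libraries: the highest edgeR adjusted p with 1 library left out was 0.0803 for Nfil3 (lost without the first EV or the second WT-Bmal1 library), 0.0598 for Rora (without the first WT-Bmal1 library) and 0.0713 for Rorb (without the first EV or the second WT-Bmal1 library).

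In the list of PAR bZIP and DEC outputs, 3 of 4 tested members rose, with a median of 1.04. Dbp, the albumin D-site binding protein (chr7:45705088-45710203, plus strand), was at 7.54 and 8.21 CPM with EV and 46.5 and 45.4 CPM with WT-Bmal1, a 5.83-fold rise (2.54 on the log2 scale, SE 0.146, edgeR adjusted p = 6.58e-07). Tef, of the same family and with an E-box before each of the starts shown above (chr15:81802421-81826863, plus strand), was at 48.1 and 40.8 CPM with EV and 112 and 117 CPM with WT-Bmal1 (1.36, SE 0.103, edgeR adjusted p = 4.40e-06). Bhlhe40 (DEC1), which competes for E-boxes and also answers to low oxygen, went from 23.4 and 24.3 CPM to 38.3 and 40.1 CPM (0.71, SE 0.114, edgeR adjusted p = 0.00129). In these 3 genes every WT-Bmal1 library lay above every EV library, and each kept its call with any 1 library left out. Bhlhe41 (DEC2) had a log2 fold change of 0.37 (edgeR adjusted p = 0.461), and Hlf was too low to test. Of 16 other clock-controlled genes tested, 1 rose and 1 fell (6.25% each, median 0.132). These shares were near the 4.92% and 6.28% of all genes. Mtss1, which links membrane to actin, rose from 6.62 and 6.21 CPM to 23.6 and 22.9 CPM (log2 fold change 1.86, SE 0.185, edgeR adjusted p = 4.18e-05). Dtx4, a Notch-pathway ubiquitin ligase, fell (-0.64, edgeR adjusted p = 0.00494), a call lost without the first WT-Bmal1 library (0.083). Nampt, Wee1, Usp2, Por and Tsc22d3, output genes in many tissues, had log2 fold changes between -0.01 and 0.31, none of them called, and Klf15, Elovl3, Fmo2 and Avpr1a were at 0 in all 6 aC3 libraries.

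**Figure D2:**
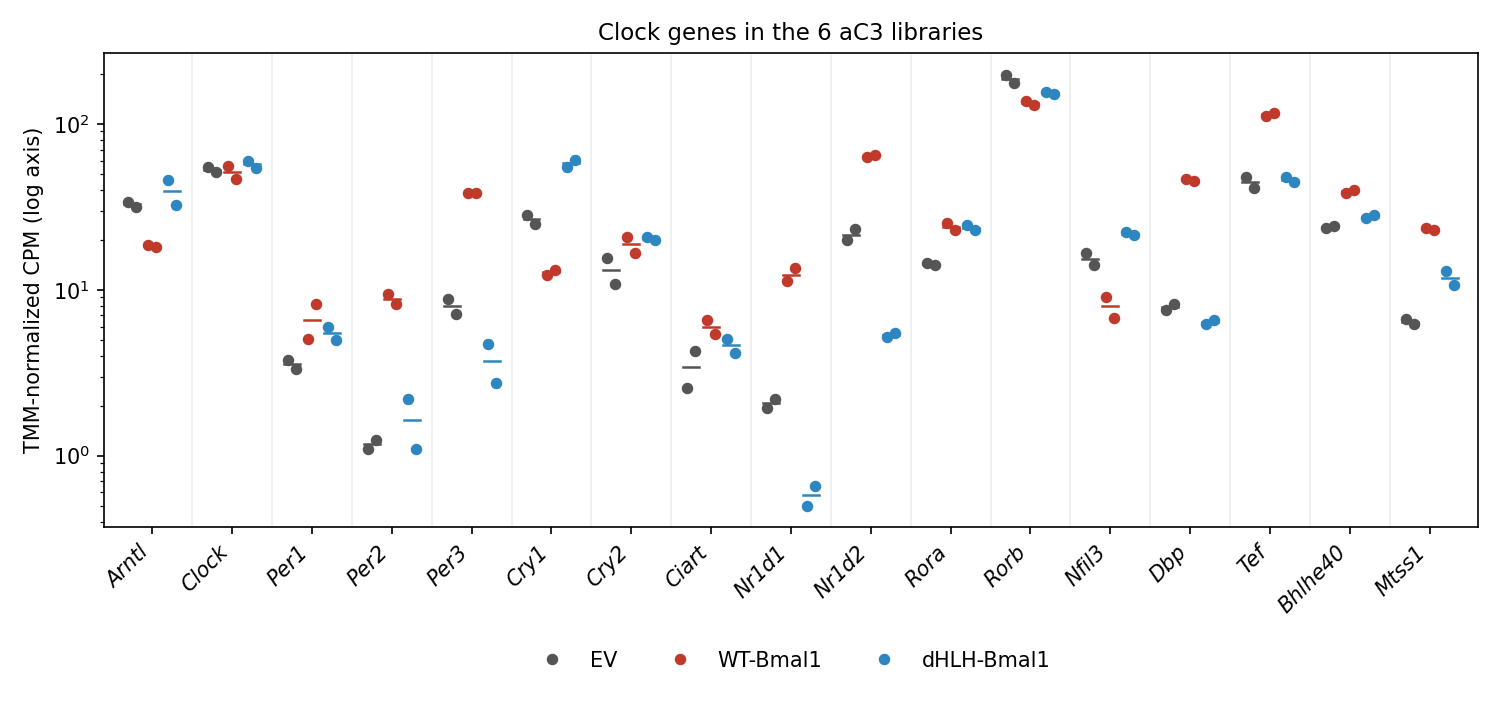
TMM-normalized CPM (log axis) of 17 clock genes in the 6 aC3 libraries, each point 1 library and each bar the mean of 2. Per2, Per3, Nr1d1, Nr1d2, Dbp and Tef are highest with WT-Bmal1 (red) and Cry1, Nfil3 and Arntl lowest, with dHLH-Bmal1 (blue) above EV (grey) for Cry1 and under it for Nr1d1 and Nr1d2.

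The dHLH-Bmal1 protein lacks the DNA-binding domain, but the paper describes it as still pairing with Clock and inhibiting transcription by the cell's own pair. Each construct was also a separate line. Loss of the domain and other effects of dHLH-Bmal1 thus cannot be told apart in this comparison. Set against dHLH-Bmal1, 121 genes were called for WT-Bmal1 (0.877% of those tested, 61 higher, 0.442%, and 60 lower, 0.435%). That number fell to 31 without the first WT-Bmal1 library and to 39 without the second, and rose to 131 and 368 without the first and second dHLH-Bmal1 library. The clock lists held 8 of the 61 and 3 of the 60. Nr1d2 was at 5.18 and 5.5 CPM with dHLH-Bmal1, so WT-Bmal1 was higher by 3.58 on the log2 scale (edgeR adjusted p = 4.81e-09). Nr1d1 was at 0.498 and 0.660 CPM (difference 4.39, edgeR adjusted p = 1.59e-05), and Per3 at 4.68 and 2.75 CPM (3.34, edgeR adjusted p = 7.65e-07). All 3 were also lower with dHLH-Bmal1 than with EV, Nr1d2 by -2.01 (edgeR adjusted p = 1.58e-05), Nr1d1 by -1.82 (edgeR adjusted p = 0.0168) and Per3 by -1.09 (edgeR adjusted p = 0.0106), so EV lay between the constructs. Cry1 showed the mirror image, at 55.0 and 60.9 CPM with dHLH-Bmal1, higher than with EV (1.12, edgeR adjusted p = 0.00013) and than with WT-Bmal1 (difference -2.19, edgeR adjusted p = 3.52e-07). Nfil3 was at 22.3 and 21.3 CPM (WT-Bmal1 minus dHLH-Bmal1 -1.45, edgeR adjusted p = 0.00201).

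Dbp and Tef gave another order, with dHLH-Bmal1 near EV. Dbp was at 6.18 and 6.60 CPM with dHLH-Bmal1, against which WT-Bmal1 was higher by 2.85 (edgeR adjusted p = 1.27e-07), and dHLH-Bmal1 against EV gave -0.30 (edgeR adjusted p = 0.299). Tef was at 47.6 and 44.6 CPM (difference 1.31, edgeR adjusted p = 9.63e-06). Per2 was at 2.19 and 1.10 CPM (2.40, edgeR adjusted p = 0.0052), a call lost without the first WT-Bmal1 library (0.104). Mtss1 was at 12.9 and 10.7 CPM, between EV and WT-Bmal1 (0.97, edgeR adjusted p = 0.0164, lost without either WT-Bmal1 library, with values of 0.149 and 0.108). Rora did not separate the constructs, with 24.4 and 22.8 CPM for dHLH-Bmal1 (0.03, edgeR adjusted p = 0.962), and was itself higher with dHLH-Bmal1 than with EV (0.72, edgeR adjusted p = 0.00575). Bhlhe40 was at 26.9 and 28.1 CPM (0.51, edgeR adjusted p = 0.0504). Tspan4, a tetraspanin with an E-box 51 bases before its start, was called against dHLH-Bmal1 (0.54, edgeR adjusted p = 0.0208, lost without either WT-Bmal1 library, 0.217 and 0.117, or the first dHLH-Bmal1 library, 0.0669) and not against EV (-0.08, edgeR adjusted p = 0.666).

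The same EV libraries serve both constructs, so the counts against EV are given side by side and no more. The dHLH-Bmal1 libraries differed from EV in 1501 genes (10.9%), 661 higher (4.79%) and 840 lower (6.09%), beside the 1544 of WT-Bmal1. In the clock lists dHLH-Bmal1 had 5 higher and 4 lower genes, against 9 and 5 for WT-Bmal1.

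Genes of the response to low oxygen were examined because the study asks how Bmal1 bears on Hif1a, the oxygen-labile subunit of the hypoxia-inducible factor. None of the 9 tested HIF subunits and oxygen sensors was called (median log2 fold change 0.164). Hif1a was at 104 and 103 CPM with EV, 120.2 and 112 CPM with WT-Bmal1 and 92.8 and 87.4 CPM with dHLH-Bmal1 (0.16 against EV, SE 0.0849, edgeR adjusted p = 0.25, and 0.36 against dHLH-Bmal1, edgeR adjusted p = 0.0698). Epas1 (0.94, edgeR adjusted p = 0.348) and the HIF hydroxylase gene Egln3 (1.01, edgeR adjusted p = 0.362) were under 3 CPM in every library, and Arnt, Arnt2, Egln1, Egln2, Hif1an and Vhl had log2 fold changes between -0.09 and 0.36. Among 29 hypoxia-responsive genes outside glycolysis, 13 rose and 1, Nfil3, fell (44.8% and 3.45%, against 4.92% and 6.28% of all genes, median 0.485). Of the 13, Bhlhe40 and Rora are also clock genes, and with the clock genes left out 11 of 25 rose and 0 fell, with the same median of 0.485. Left without 1 library, 4 to 7 of the 29 were higher, lowest without the first EV library. The dHLH-Bmal1 libraries had 5 of 29 higher than EV and 0 lower (median 0.261, with 4.79% and 6.09% of all genes), and between WT-Bmal1 and dHLH-Bmal1 1 was higher and 1 lower.

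Ddit4 (REDD1), an inhibitor of mTORC1 that hypoxia and stress induce, was at 72.5 and 63.5 CPM with EV and 112 and 119 CPM with WT-Bmal1 (log2 fold change 0.76, SE 0.0928, edgeR adjusted p = 0.000188), and at 135 and 128 CPM with dHLH-Bmal1. Car9, a carbonic anhydrase that HIF induces, was at 1.2 and 1.72 CPM against 4.45 and 3.92 CPM (1.52, edgeR adjusted p = 0.0258), and Ppp1r3c, a glycogen-targeting subunit, at 1.2 and 0.955 CPM against 4.64 and 3.92 CPM (1.98, edgeR adjusted p = 0.0209). The 2 low genes did not overlap between the groups, but each lost its call whichever library was left out (highest edgeR adjusted p 0.181 for Car9 and 0.142 for Ppp1r3c). In glycolysis 3 of 19 genes rose and 1 fell (15.8% and 5.26%, against 4.92% and 6.28% of all genes, median 0.174). Pdk1, a pyruvate dehydrogenase kinase, rose from 72.8 and 72.5 CPM to 107 and 102 CPM (0.52, edgeR adjusted p = 0.00151). Gpi1 (0.36) and Eno2 (0.62) passed, while the glucose transporter Slc2a3 was lower (-0.34). Gpi1, Eno2 and Slc2a3 each lost their call whichever library was left out (highest edgeR adjusted p 0.209, 0.249 and 0.309).

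The lists with the largest shares of lower genes were the cell cycle and ATF4 lists. The paper reports that in culture aC3 lines with these constructs grew at indistinguishable rates, in normal and in low oxygen. Of 29 tested cell cycle genes, 16 fell and 0 rose (55.2%, against 6.28% of all genes, median -0.304), and 27 of 29 had a log2 fold change at or under 0. Mcm4, a subunit of the replicative helicase, fell from 69.9 and 74.5 CPM to 45.4 and 34.5 CPM (log2 fold change -0.85, SE 0.127, edgeR adjusted p = 0.000811). Ccne1, cyclin E1, fell from 34.0 and 34.2 CPM to 21.1 and 21.2 CPM (-0.69, SE 0.127, edgeR adjusted p = 0.00329). Rrm2, a subunit of ribonucleotide reductase, went from 113 and 119 CPM to 77.0 and 77.7 CPM (-0.59, edgeR adjusted p = 0.000882). Mcm2 went from 103 and 115 CPM to 70.1 and 73.4 CPM (-0.61, edgeR adjusted p = 0.00235, lost without the second EV library). The same list in dHLH-Bmal1 against EV had 13 lower and 0 higher (median -0.32, with 6.09% and 4.79% of all genes). WT-Bmal1 against dHLH-Bmal1 gave 0 in either direction. With 1 library left out, 5 or 6 cell cycle genes were called lower.

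The ATF4 list, genes for amino acid supply that the stress factor ATF4 drives, had 12 of 24 lower and 3 higher (50% and 12.5%, median -0.317), with 6 to 8 lower when 1 library was left out. Slc7a5, the large neutral amino acid transporter, was at 26.3 and 32.5 CPM with EV and 11.9 and 13.0 CPM with WT-Bmal1 (log2 fold change -1.24, SE 0.159, edgeR adjusted p = 0.000302). Psph, the last enzyme of serine synthesis, was lower (-0.76, edgeR adjusted p = 0.00925), a call lost without the second EV library (0.111), the first WT-Bmal1 library (0.0829) or the second (0.0558). Ddit4, which belongs to this list too, was among the 3 that rose. With dHLH-Bmal1, Slc7a5 was at 13.8 and 12.8 CPM, and the list had 8 lower and 4 higher genes against EV.

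**Figure D3:**
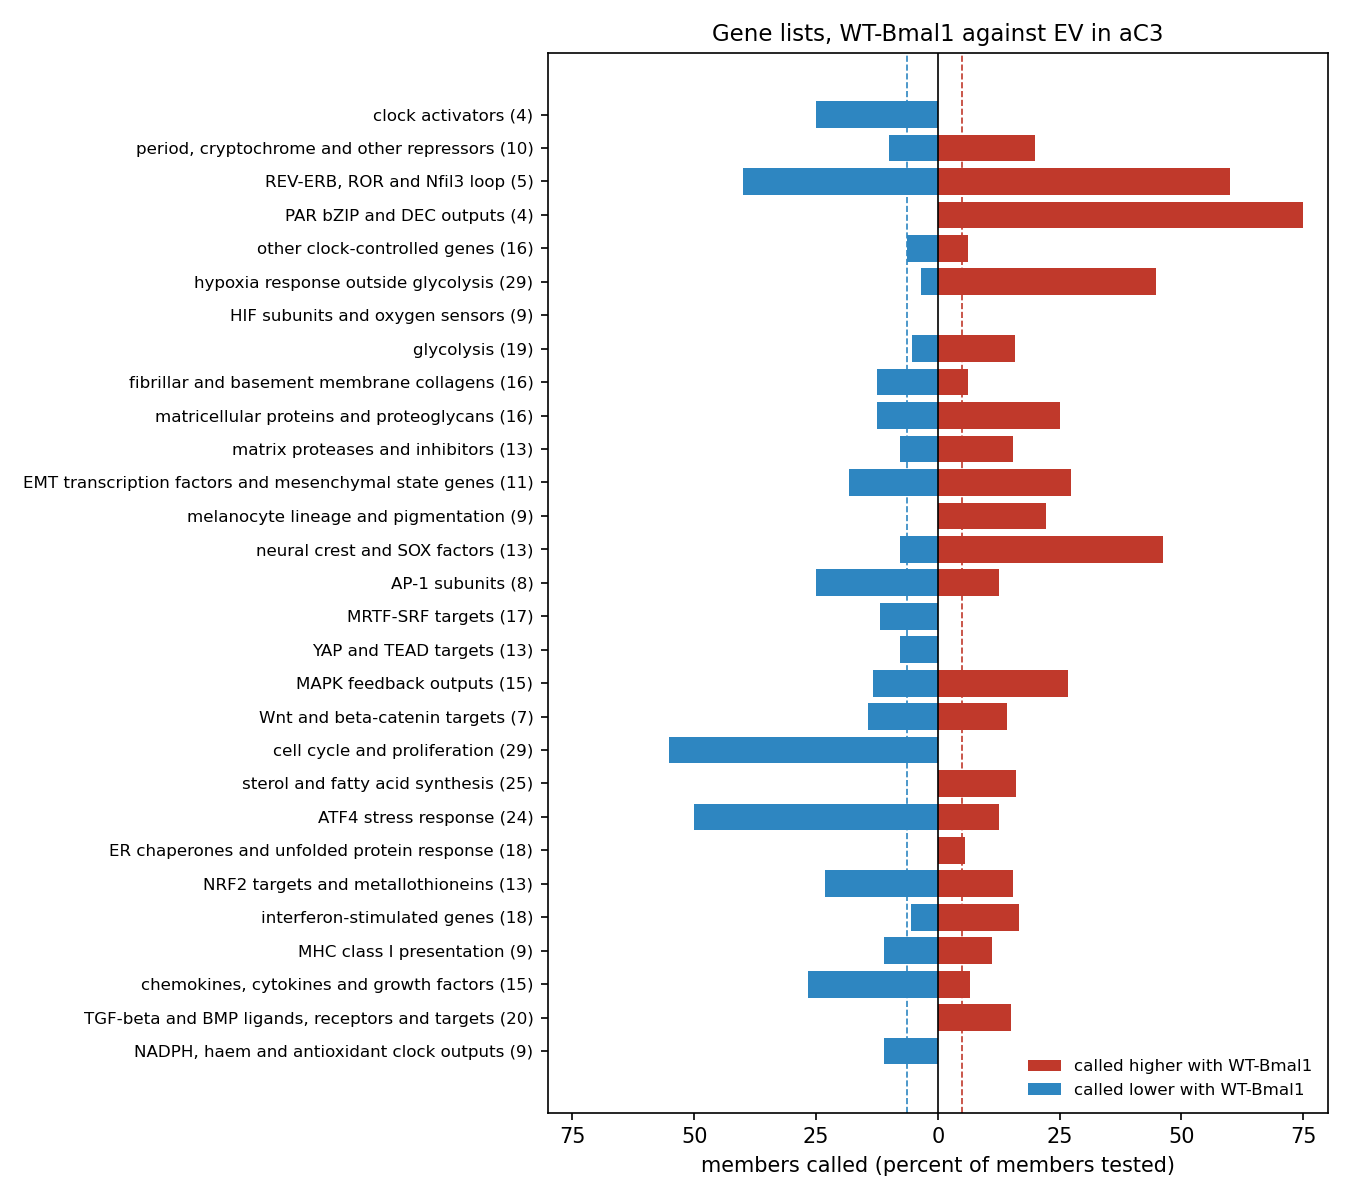
For each gene list (number of members tested in parentheses), bars give the percent of tested members called higher (red, to the right) and lower (blue, to the left) with WT-Bmal1 against EV, and dashed lines give the same percent over all genes, 4.92 and 6.28. The PAR bZIP and REV-ERB lists have the longest bars to the right and the cell cycle (55.2%) and ATF4 (50%) lists the longest to the left.

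The study follows Sox9 and Sox10 as marks of mesenchymal and melanocytic melanoma states. Sox9, a neural crest factor, was at 3.31 and 4.49 CPM with EV, 9.38 and 10.4 CPM with WT-Bmal1 and 5.68 and 6.71 CPM with dHLH-Bmal1. WT-Bmal1 lay above both other groups, and the rise over EV passed the test (log2 fold change 1.34, SE 0.256, edgeR adjusted p = 0.00412, lost without the first EV library, 0.062), while the difference from dHLH-Bmal1 did not (0.67, edgeR adjusted p = 0.266). Sox10 was at 465 and 454 CPM with EV, 560 and 569 CPM with WT-Bmal1 and 620 and 564 CPM with dHLH-Bmal1 (0.30 against EV, edgeR adjusted p = 0.0389, lost whichever library was left out, up to 0.267). Mitf, the master regulator of melanocytes, had a log2 fold change of 0.20 (edgeR adjusted p = 0.537).

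In the list of neural crest and SOX factors, 6 of 13 genes rose and 1 fell (46.2% and 7.69%, against 4.92% and 6.28% of all genes), with a median of 0.0383, and 3 to 5 were higher when 1 library was left out. Aqp1, a water channel, rose from 14.3 and 13.2 CPM to 57.5 and 57.8 CPM (log2 fold change 2.07, SE 0.135, edgeR adjusted p = 1.22e-06), and was also higher than EV with dHLH-Bmal1, at 49.6 and 39.5 CPM (1.70, edgeR adjusted p = 1.58e-05). Sox5, a SOX factor without an activation domain, was at 16.3 and 14.8 CPM against 24.1 and 27.8 CPM (0.74, edgeR adjusted p = 0.00659, lost without the second EV library, 0.0781, or the second WT-Bmal1 library, 0.0875). Ngfr, the low-affinity neurotrophin receptor that marks a neural crest-like melanoma state, fell from 770 and 739 CPM to 402 and 440 CPM (-0.84, SE 0.0878, edgeR adjusted p = 6.07e-05). Ngfr also differed between the constructs, at 735 and 707 CPM with dHLH-Bmal1 (WT-Bmal1 minus dHLH-Bmal1 -0.78, edgeR adjusted p = 0.000528). In the melanocyte list 2 of 9 tested genes rose and 0 fell (median 0.0919). They were Sox10 and S100b, a calcium-binding protein of Schwann and melanoma cells, at 126 and 127 CPM with EV and 275 and 296 CPM with WT-Bmal1 (1.17, SE 0.103, edgeR adjusted p = 1.26e-05).

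Of 16 matricellular proteins and proteoglycans of the extracellular matrix, 4 rose and 2 fell (25% and 12.5%, against 4.92% and 6.28% of all genes, median 0.088). Mgp, matrix Gla protein, an inhibitor of calcification, went from 0.552 and 0.764 CPM to 10.5 and 7.30 CPM (log2 fold change 3.74, SE 0.442, edgeR adjusted p = 0.000154). Fn1, fibronectin, rose from 84.5 and 86.8 CPM to 146 and 164 CPM (0.86, SE 0.0873, edgeR adjusted p = 4.78e-05), with dHLH-Bmal1 between, at 120 and 117 CPM. Mgp was at 2.89 and 1.43 CPM with dHLH-Bmal1 (WT-Bmal1 higher by 2.03, edgeR adjusted p = 0.0197, lost without the first WT-Bmal1 library, 0.375, or the second, 0.0606). Bgn, biglycan, was higher (0.67) and Fbln2, fibulin 2, lower (-1.10), and both calls were lost whichever library was left out (highest edgeR adjusted p 0.297 and 0.169). Of 16 collagens 1 rose and 2 fell (6.25% and 12.5%, median 0.0828), counts near the background of all genes. Col11a1, a fibrillar collagen, was at 108 and 112 CPM against 150 and 164 CPM (0.51, edgeR adjusted p = 0.00282, lost without the first EV library, 0.0539, or the second WT-Bmal1 library, 0.0581).

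Of 13 proteases and their inhibitors, 2 rose and 1 fell (15.4% and 7.69%, against 4.92% and 6.28% of all genes, median 0.0483). Timp3, an inhibitor of matrix metalloproteases, rose from 40.6 and 34.6 CPM to 90.0 and 73.9 CPM (log2 fold change 1.12, SE 0.127, edgeR adjusted p = 0.000109). Plat, tissue plasminogen activator, fell from 15.2 and 20.8 CPM to 6.87 and 6.03 CPM (-1.48, SE 0.217, edgeR adjusted p = 0.000764). Timp3 was at 51.8 and 44.0 CPM with dHLH-Bmal1, under both WT-Bmal1 libraries (0.77, edgeR adjusted p = 0.00919, lost without the first WT-Bmal1 library, 0.144). Of 20 genes of the TGF-beta and BMP pathway 3 rose and 0 fell (15% higher, median 0.0522). Tgfb2, a TGF-beta ligand, was at 44.1 and 45.7 CPM with EV, 133 and 131 CPM with WT-Bmal1 and 88.0 and 68.9 CPM with dHLH-Bmal1. The 3 groups did not overlap, and WT-Bmal1 was higher than EV (1.56, SE 0.111, edgeR adjusted p = 2.97e-06) and than dHLH-Bmal1 (0.75, edgeR adjusted p = 0.00305, lost without the first WT-Bmal1 library, 0.0507).

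Among 11 EMT factors and mesenchymal genes, 3 rose and 2 fell (27.3% and 18.2%, against 4.92% and 6.28% of all genes, median 0.186). Zeb1, a repressor of epithelial genes, rose from 26.2 and 27.4 CPM to 44.8 and 47.9 CPM (log2 fold change 0.79, SE 0.113, edgeR adjusted p = 0.000673). Axl, a receptor tyrosine kinase of the mesenchymal state, fell from 557 and 557 CPM to 379 and 376 CPM (-0.56, SE 0.0811, edgeR adjusted p = 0.00069). Twist1 was at 17.3 and 21.1 CPM against 11.7 and 11.3 CPM (-0.74, edgeR adjusted p = 0.0263, lost whichever library was left out, up to 0.219). The members that moved thus did not share a direction.

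Subunits of AP-1 and outputs of the MAPK pathway, which the Braf mutation drives in this line, also split. Fosl1 (FRA1), an AP-1 subunit that MAPK signalling sustains, fell from 67.9 and 76.7 CPM to 28.6 and 24.1 CPM (log2 fold change -1.45, SE 0.118, edgeR adjusted p = 7.92e-06), and was at 36.8 and 36.8 CPM with dHLH-Bmal1. Fosl2 was lower (-0.37) and Fos higher (1.16), calls that were lost whichever library was left out (highest edgeR adjusted p 0.195 and 0.293), so that 1 of 8 AP-1 genes rose and 2 fell (12.5% and 25%, against 4.92% and 6.28% of all genes). Of 15 MAPK outputs 4 rose and 2 fell (26.7% and 13.3%, median -0.0104). Spry1, a feedback inhibitor of receptor tyrosine kinase signalling, rose from 2.85 and 4.39 CPM to 14.1 and 14.0 CPM (1.96, SE 0.252, edgeR adjusted p = 0.000303). Etv5, an ETS factor downstream of ERK, rose from 148 and 146 CPM to 239.6 and 252 CPM (0.74, SE 0.0803, edgeR adjusted p = 7.45e-05). Dusp5, a nuclear phosphatase of ERK, fell from 17.8 and 16.4 CPM to 7.54 and 7.41 CPM (-1.19, SE 0.186, edgeR adjusted p = 0.00108). Epha2, an ephrin receptor, was at 5.98 and 4.58 CPM against 2.13 and 1.69 CPM (-1.46, edgeR adjusted p = 0.0177, lost whichever library was left out, up to 0.162). Of these, Spry1 was called against dHLH-Bmal1 (5.18 and 5.83 CPM, difference 1.35, edgeR adjusted p = 0.0164), a call lost without either WT-Bmal1 library (0.147 and 0.111) or the first dHLH-Bmal1 library (0.052).

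**Figure D4:**
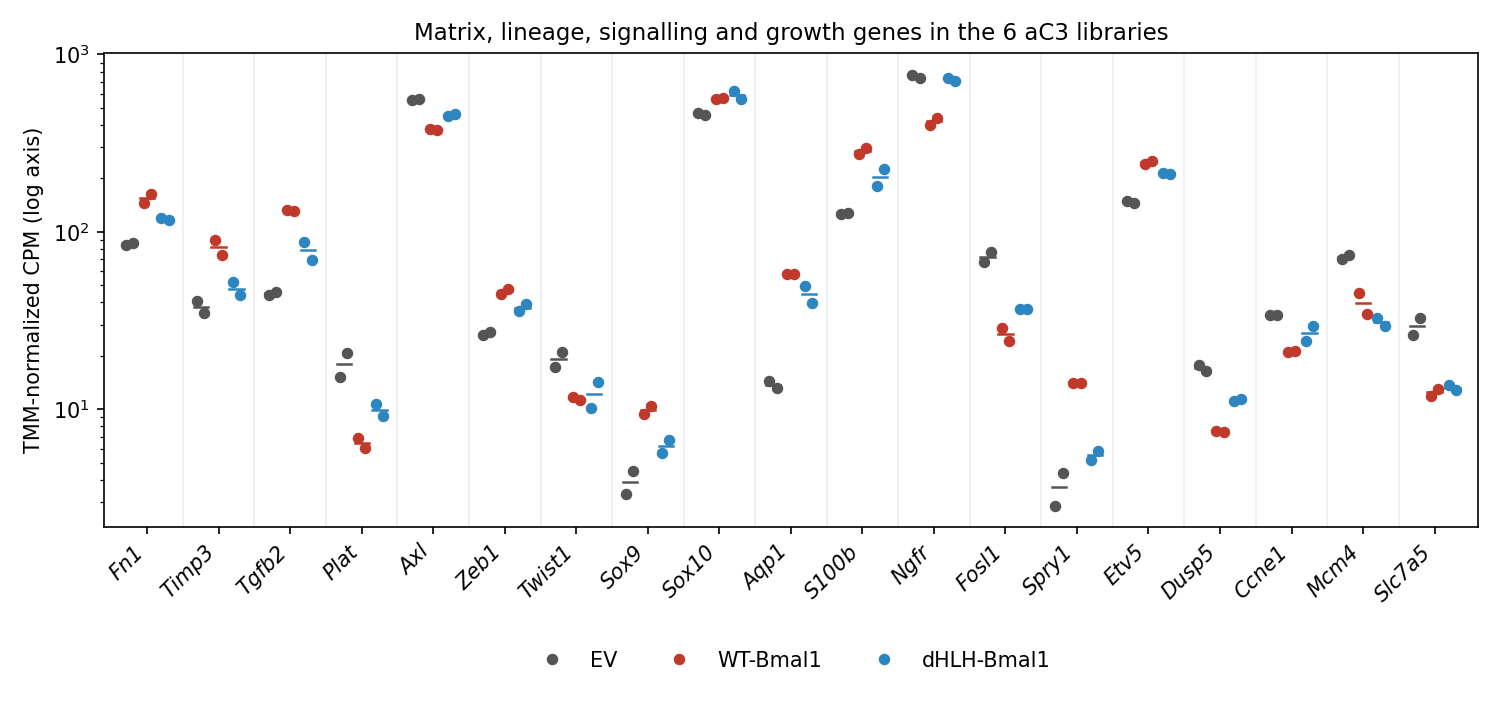
TMM-normalized CPM (log axis) of 19 genes of matrix, lineage, signalling and growth in the 6 aC3 libraries, each point 1 library and each bar the mean of 2. For Ngfr, Spry1, Tgfb2 and Timp3 the WT-Bmal1 libraries (red) overlap neither EV (grey) nor dHLH-Bmal1 (blue), and dHLH-Bmal1 lies between for Spry1, Tgfb2 and Timp3. For Aqp1, Mcm4 and Slc7a5 both constructs also lie on 1 side of EV.

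Of 15 chemokines, cytokines and growth factors 1 rose and 4 fell (6.67% and 26.7%, against 4.92% and 6.28% of all genes, median -0.0457). Ccl2, the monocyte chemokine, fell from 24.7 and 27.7 CPM to 10.8 and 13.8 CPM (log2 fold change -1.09, SE 0.167, edgeR adjusted p = 0.000913), and was at 14.4 and 12.7 CPM with dHLH-Bmal1. Its neighbour in the family Ccl7 (-1.40) and the cytokine Lif (-2.46) were under 8 CPM and lost their calls whichever library was left out (highest edgeR adjusted p 0.165 and 0.342). Of 18 interferon-stimulated genes 3 rose and 1 fell (16.7% and 5.56%, median 0.372), among them Ifit3, an antiviral protein, at 4.41 and 4.01 CPM against 9.96 and 10.2 CPM (1.25, edgeR adjusted p = 0.00583, lost without the second EV library, 0.0667). In MHC class I presentation 1 of 9 rose and 1 fell (11.1% each, median 0.423), the riser being Tapbp, tapasin (0.76, edgeR adjusted p = 0.00354, up to 0.065 with 1 library left out).

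Of 25 genes for sterols and fatty acids 4 rose and 0 fell (16% higher, against 4.92% of all genes, median 0.149), among them Insig1, the sterol-sensing brake on SREBP (log2 fold change 0.58, edgeR adjusted p = 0.00109), and the desaturase Scd1 (0.55, edgeR adjusted p = 0.00178). Nsdhl (0.37) lost its call whichever library was left out (up to 0.176). With dHLH-Bmal1 11 of the 25 were higher than EV and 1 lower, with 4.79% and 6.09% of all genes. Of 13 NRF2 targets and metallothioneins 2 rose and 3 fell (15.4% and 23.1%, against 4.92% and 6.28% of all genes, median -0.245), with thioredoxin reductase Txnrd1 lower (-0.55, edgeR adjusted p = 0.00177), the glutathione-synthesis enzyme Gclc lower (-0.67, edgeR adjusted p = 0.00995, up to 0.114 with 1 library left out) and the metallothionein Mt1 higher (0.51, edgeR adjusted p = 0.00664, up to 0.118). Srxn1 (-0.37) lost its call whichever library was left out (up to 0.281).

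The other lists held 1 or 2 calls each, beside 11.2% of all genes called in either direction. Of 18 ER chaperones 1 was higher, Herpud1, of ER-associated degradation (log2 fold change 0.45, edgeR adjusted p = 0.0246, up to 0.184 with 1 library left out), with a median of -0.0824. Of 9 genes for NADPH, haem and antioxidants 1 was lower, the peroxidase Gpx1 (-0.41, edgeR adjusted p = 0.0258, up to 0.168), with a median of -0.0141. Of 7 Wnt targets Nkd2, a Dishevelled-binding feedback inhibitor, was higher (0.43, edgeR adjusted p = 0.00423, up to 0.0905) and Ccnd1, cyclin D1, lower (-0.31, edgeR adjusted p = 0.0389, up to 0.261), with a median of -0.0963. Of 17 MRTF-SRF targets 0 rose and 2 fell (median -0.13), and both calls were lost whichever library was left out. Of 13 YAP and TEAD targets 0 rose and 1, Axl, fell (median -0.043).

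Outside the lists, the 12 genes with the largest change in each direction were taken from called genes with at least 5 CPM in the higher group, non-overlapping libraries and an established symbol. For the genes taken, non-overlap was thus a condition of the choice and lends them no support. Per2, Nr1d1, Dbp and Per3 were among the 12 that rose, as was Mgp. Sema3d, a secreted guidance cue, was at 1.01 and 0.477 CPM with EV and 6.87 and 9.74 CPM with WT-Bmal1 (log2 fold change 3.45, SE 0.409, edgeR adjusted p = 0.00016). Inpp4b, a phosphatase of the PI3K pathway, was at 1.2 and 1.15 CPM against 13.1 and 10.1 CPM (3.29, SE 0.342, edgeR adjusted p = 6.07e-05), and at 2.29 and 1.43 CPM with dHLH-Bmal1 (difference 2.62, edgeR adjusted p = 0.0012). Gfap, the glial intermediate filament, went from 1.10 and 0.286 CPM to 6 and 5.82 CPM (3.05, SE 0.459, edgeR adjusted p = 0.000856), and was at 5.28 and 4.29 CPM with dHLH-Bmal1.

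Kalrn, a guanine nucleotide exchange factor, was higher by 2.35 (edgeR adjusted p = 0.00384, lost without the second EV library, 0.0584) and Wfdc18 by 2.37 (edgeR adjusted p = 0.00506, lost without the second EV library, 0.0603). Sap18b was at 0 in both EV libraries and both dHLH-Bmal1 libraries and at 3.38 and 8.26 CPM with WT-Bmal1, at least 20.7-fold higher against a floor of 3 counts per library, 0.281 CPM (edgeR adjusted p = 0.000623). Ugt1a8 was at 0 and 4.11 CPM against 14.1 and 21 CPM (3.10, edgeR adjusted p = 0.0128), with 22.3 and 6.05 CPM for dHLH-Bmal1, and lost its call without the first EV library (0.0623), without the second WT-Bmal1 library (0.0809) and by DESeq2 (0.435). Both are uncertain: Sap18b has a near-identical relative, Sap18, and the Ugt1a genes share their last exons, so that 3′ reads can be split among 16 overlapping genes on the same strand. Chosen after its values were seen, Col15a1, a basement membrane collagen, was at 5.79 and 4.49 CPM with EV, 22.2 and 25.7 CPM with WT-Bmal1 and 5.88 and 4.18 CPM with dHLH-Bmal1 (2.21 against EV, edgeR adjusted p = 4.24e-05).

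On the lower side stood Plat, Fosl1, Epha2, Ccl7 and Slc7a5, described above. Gda, guanine deaminase, was at 7.63 and 8.78 CPM with EV, 1.45 and 1.27 CPM with WT-Bmal1 and 0.0996 and 0 CPM with dHLH-Bmal1, so that WT-Bmal1 lay between (log2 fold change -2.58 against EV, SE 0.381, edgeR adjusted p = 0.000775). Cdc42ep3, an effector of Cdc42, fell from 9.29 and 13.4 CPM to 3.67 and 2.75 CPM (-1.81, SE 0.291, edgeR adjusted p = 0.00138). Steap1, a member of the STEAP family, fell from 21.2 and 18.9 CPM to 8.71 and 6.25 CPM (-1.42, SE 0.203, edgeR adjusted p = 0.000669), and Shmt1, cytosolic serine hydroxymethyltransferase, from 14.0 and 13.8 CPM to 5.61 and 5.29 CPM (-1.34, SE 0.232, edgeR adjusted p = 0.00209). The other entries were Tfap4, a bHLH factor (-1.41, edgeR adjusted p = 0.0176, up to 0.167 with 1 library left out), Kti12 (-1.30, edgeR adjusted p = 0.0137, up to 0.16) and Raet1d, an NKG2D ligand of a family of close copies (6.25 and 5.92 CPM against 0 and 1.69 CPM, edgeR adjusted p = 0.0254, up to 0.137).

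Whether the effect of WT-Bmal1 depended on the cell's own Bmal1 was asked by a test of the difference between (WT-Bmal1 minus EV) in aC3 and (WT-Bmal1 minus EV) in YUMM2.1 with shNC. This difference was called for 2189 of 14743 genes (14.8%), 1263 higher in aC3 (8.57%) and 926 lower (6.28%), and for 1444 to 2536 with 1 library left out, the lowest without the first aC3 EV library (1444) and the first aC3 WT-Bmal1 library (1460). In shNC cells alone WT-Bmal1 and EV differed in 4930 of 14743 genes (33.4%), 2349 higher (15.9%) and 2581 lower (17.5%). In the clock lists 6 of 39 genes were higher and 4 lower in shNC cells, and 10 had a higher effect in aC3 and 4 a lower one. Clone, hairpin and state of the cell's own Bmal1 differ together between the backgrounds and cannot be told apart.

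Nr1d1 was at 8.60 and 11.1 CPM with EV and 9.25 and 11 CPM with WT-Bmal1 in YUMM2.1 shNC (log2 fold change 0.05, edgeR adjusted p = 0.913), so that the effect in aC3 was larger by 2.53 (SE 0.371, edgeR adjusted p = 0.000112). The EV level in aC3, 1.93 and 2.2 CPM, stood far under all 4 shNC libraries and the WT-Bmal1 level, 11.2 and 13.4 CPM, near them. The aC3 CPM were scaled over the 6 aC3 libraries and the shNC CPM over all 12 libraries. Per2 was at 4.79 and 4.25 CPM with EV and 8.84 and 8.43 CPM with WT-Bmal1 in shNC cells (0.93, edgeR adjusted p = 0.0343), a difference between the backgrounds of 1.97 (edgeR adjusted p = 0.0112, lost without the first aC3 EV library, 0.0597). Per3 was at 16.9 and 12.2 CPM against 19.1 and 22.3 CPM (0.51, edgeR adjusted p = 0.0962, difference 1.75, edgeR adjusted p = 0.00107). Dbp rose in both backgrounds, in shNC cells from 12.5 and 8.94 CPM to 18.9 and 26.5 CPM (1.09, edgeR adjusted p = 0.000289), and by 1.46 more in aC3 (edgeR adjusted p = 0.00105). Nr1d2 (0.87, edgeR adjusted p = 2.55e-05) and Tef (0.81, edgeR adjusted p = 6.18e-05) also rose in shNC cells, with differences of 0.71 (edgeR adjusted p = 0.00927) and 0.56 (edgeR adjusted p = 0.034). The difference of Nr1d2 lost its call without the first aC3 EV library (0.0859) or the second shNC EV library (0.0565), and that of Tef without any 1 of 5 libraries, the second EV and both WT-Bmal1 libraries of aC3, the second shNC EV library and the first shNC WT-Bmal1 library (0.0899 to 0.205).

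For Arntl, Cry1, Nfil3 and Mtss1, shNC cells gave no call. Arntl was at 31.2 and 26.7 CPM with EV and 35.5 and 34.2 CPM with WT-Bmal1 (log2 fold change 0.27, edgeR adjusted p = 0.242), against the fall in aC3 (difference -1.10, SE 0.24, edgeR adjusted p = 0.00412). Cry1 was at 18.7 and 19.6 CPM against 16.9 and 18.9 CPM (-0.10, edgeR adjusted p = 0.659, difference -0.96, edgeR adjusted p = 0.00324). Nfil3 gave 0.15 (edgeR adjusted p = 0.622, difference -1.09, edgeR adjusted p = 0.0155) and Mtss1 -0.12 (edgeR adjusted p = 0.669, difference 1.98, edgeR adjusted p = 5.56e-05). Bhlhe40 turned over, falling in shNC cells from 37.6 and 36.1 CPM to 23.4 and 26.7 CPM (-0.55, edgeR adjusted p = 0.0042) where it rose in aC3 (difference 1.27, edgeR adjusted p = 0.000129). Rorb fell in both, and more in shNC cells, from 166 and 173 CPM to 42.7 and 44.4 CPM (-1.96, edgeR adjusted p = 8.28e-11, difference 1.49, edgeR adjusted p = 3.79e-07). Fosl1 had nearly equal values, -1.43 in shNC cells and -1.45 in aC3, and Ypel2, a clock output in other tissues, passed in shNC cells (2.70, edgeR adjusted p = 0.000231) and not in aC3 (0.70, edgeR adjusted p = 0.16), with a difference of -2.001 (edgeR adjusted p = 0.0284). The difference of Nfil3 lost its call without the first aC3 EV library (0.0696), the second aC3 WT-Bmal1 library (0.0748) or the second shNC WT-Bmal1 library (0.0868), and that of Ypel2 without the second library of any of these 4 groups (0.0861 to 0.139).

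**Figure D5:**
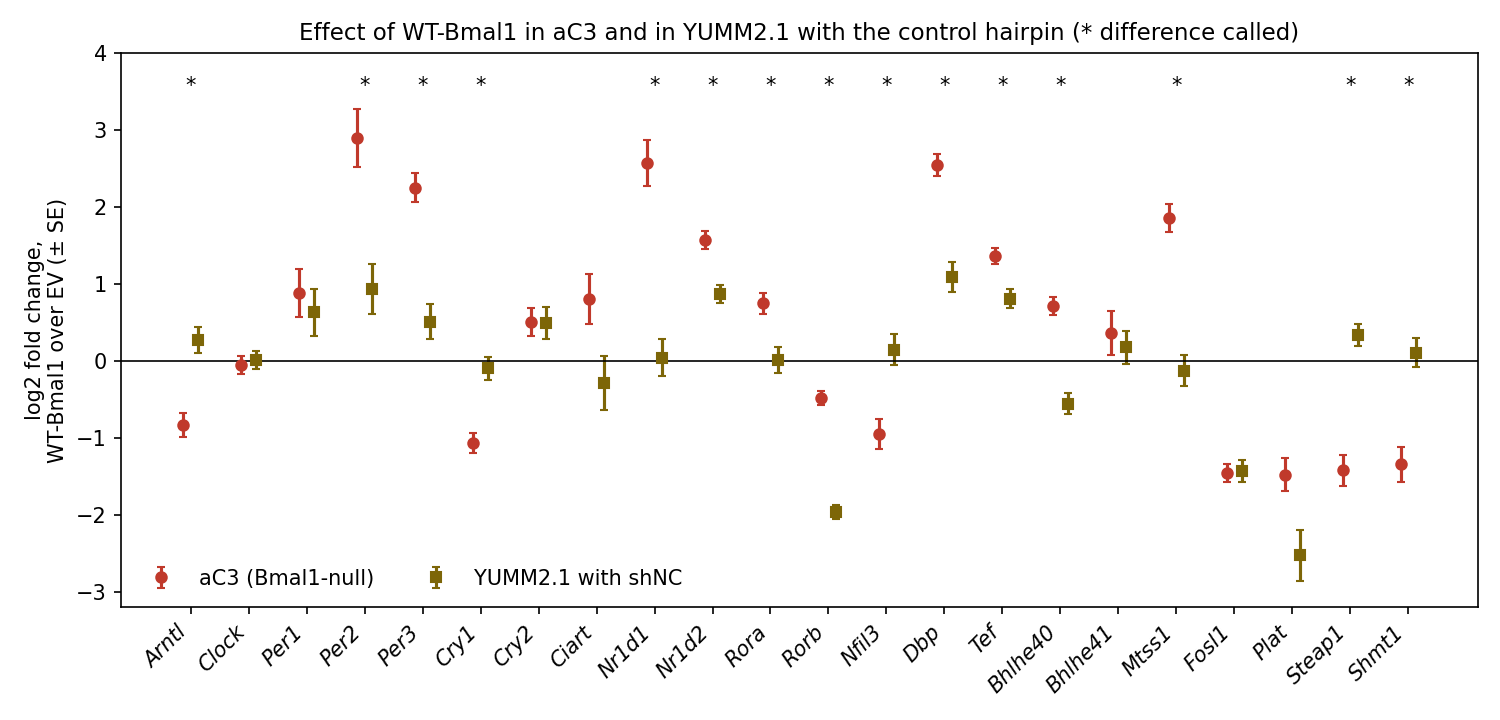
Log2 fold change of WT-Bmal1 over EV, with its SE as the error bar, in aC3 (red circles) and in YUMM2.1 with shNC (olive squares) for 22 genes, from the fit of 12 libraries for shNC and of 6 for aC3. Asterisks mark genes whose difference between the backgrounds was called, among them Nr1d1 (2.53) and Rorb (1.49), and the values of Fosl1 nearly coincide.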

How the data were processed

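Counts were used from 12 of 40 samples: the aC3 EV, WT-Bmal1 and dHLH-Bmal1 libraries (dHLH-Bmal1 is labelled bHLH or bH) and the YUMM2.1 shNC libraries with the same constructs, with 2 per group. The study made QuantSeq FWD 3′ libraries from 100 ng of DNase-treated RNA, read them as single 75-base reads, aligned them with bowtie2 to mm10 and estimated counts with RSEM. The authors deposited these expected counts per Ensembl gene, not normalized and rounded to whole numbers, and compared groups with DESeq2 at an FDR of 5%. The Ensembl release and the strand setting of the counting were not given in the sources used here, so reads of overlapping and antisense genes cannot be told apart. Of the table's columns, 1 holds no sample and was not used as a value.

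Counts were analysed in R 4.3.3 with edgeR 4.0.16 (TMM, filterByExpr by group, glmQLFit, glmQLFTest), group being the only term. The SE of a log2 fold change was its size divided by the square root of the F statistic. The 6 aC3 libraries formed one fit, from which WT-Bmal1 minus EV, WT-Bmal1 minus dHLH-Bmal1 and dHLH-Bmal1 minus EV were taken, and 12 libraries formed a second fit for the difference between backgrounds. The shNC groups were used as the second background because labels of the plain YUMM2.1 groups had been doubted in earlier work on these data. Alternatives were DESeq2 1.42.0 and its size factors, no filter on low counts, a mean count of at least 10, the replicate number as a block, a fit of only the groups compared, the 12-library fit, a log2 fold change of at least 1, and leaving out each library. The code was tested on simulated data.

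The members and gene lists were chosen with earlier results of these data known, so lists are described by counts and medians beside those over all genes. Named genes were those of 5 clock lists, called members among the 4 largest changes of every other list, the HIF list, Sox9, Sox10 and Mitf, and the 12 largest changes in each direction among called genes with at least 5 CPM in the higher group, no overlap and an established symbol. Promoters came from RefSeq on GRCm38.p6, and gene coordinates and overlaps from the GENCODE annotation of the same assembly. Some members of the gene lists and part of the line's genotype are not reported here.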

Additional observations from a re-analysis of the deposited data

Results flagged for a closer look

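For 22 named genes the effect of WT-Bmal1 differed between aC3 and YUMM2.1 with shNC by the interaction test (edgeR adjusted p under 0.05), each value below being the log2 fold change in aC3 minus that in shNC cells. Clock genes with a higher value in aC3 were Nr1d1 (2.531), Mtss1 (1.984), Per2 (1.971), Per3 (1.746), Rorb (1.485), Dbp (1.461), Bhlhe40 (1.273), Rora (0.7369), Nr1d2 (0.7052) and Tef (0.5611). Those with a lower value were Ypel2 (-2.001), Arntl (-1.098), Nfil3 (-1.087) and Cry1 (-0.9641). Rorb has a positive difference because it fell less in aC3 than in shNC cells. Among the 24 genes with the largest changes, the difference was positive for Sap18b (8.045), Ugt1a8 (5.626), Inpp4b (4.381) and Wfdc18 (3.984) and negative for Tfap4 (-1.791), Steap1 (-1.756), Shmt1 (-1.444) and Kti12 (-1.377).

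Of the 22, 12 kept this call with any 1 of the 8 EV and WT-Bmal1 libraries left out and 19 kept it under every other alternative. Rora lost it in 7 of 8 such fits, all but that without the first shNC WT-Bmal1 library (adjusted p up to 0.217, without the second shNC WT-Bmal1 library) and under 4 other alternatives (up to 0.0771), and Kti12 in 6 of 8, all but those without the first aC3 EV or the second shNC WT-Bmal1 library (up to 0.177, without the second aC3 EV library) and with DESeq2 (0.0623). Tfap4 lost it in 5 of 8, without the second aC3 EV (0.0943), the second aC3 WT-Bmal1 (0.11), either shNC EV (0.0685 and 0.0562) or the first shNC WT-Bmal1 library (0.114). Sap18b lost it in 3, without either aC3 EV library (0.0738 and 0.0632) or the second aC3 WT-Bmal1 library (0.0562), and Ugt1a8 without the first shNC EV library (0.0731) and with DESeq2 (0.241). Tef lost it in 5 of 8, Ypel2 in 4, Nfil3 in 3, Nr1d2 in 2 and Per2 in 1, with the libraries named above. Sap18b was listed at 0 in aC3 EV, so its difference depends on the prior count and is no estimate of size, and in shNC cells it was at 15.2 and 29.7 CPM with EV and 50.1 and 24 CPM with WT-Bmal1.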

How the results depend on the processing

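All values here are numbers of called genes. Left without 1 library, WT-Bmal1 against EV gave 510 to 547 (1544 with all), its named genes 50 to 57 (81 with all), its list members 60 to 64 (121 with all), WT-Bmal1 against dHLH-Bmal1 31 to 368 (121 with all) and the difference between backgrounds 1444 to 2536 (2189 with all). A lone library in a group was then taken to vary like the other groups. Of the 81 named genes called against EV, 42 kept their call whichever library was left out and 62 under every other alternative, 13 lost it under at least 1, another 6 were not lost but had no adjusted p from DESeq2, and none turned its direction. A log2 fold change of at least 1 left 195, 37 and 1004 in the 3 comparisons. Against dHLH-Bmal1, no filter on low counts gave 396. Over all genes tested, same-numbered libraries deviated together only weakly, with correlations of 0.0248 to 0.0742 in aC3 and of 0.00706 to 0.0591 in shNC cells. Such values over all genes cannot settle whether the replicate number pairs the libraries. With that number as a block, the 3 comparisons gave 1989, 280 and 2405. For WT-Bmal1 against EV the other fits gave 1541 (DESeq2 size factors), 1101 (DESeq2), 2000 (no filter), 1552 (mean count of at least 10), 2303 (only the groups compared) and 1252 (12 libraries). Why the numbers moved was not tested. At about 10 counts to 1 CPM, differences in genes of a few CPM were measured on few counts.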
